A study of Mus musculus with 96 samples.

Results

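The major histocompatibility complex (MHC) class I genes were followed in liver RNA from 48 male F1 mice, each carrying 1 NOD/ShiLtJ and 1 PWK/PhJ copy of every autosome. NOD/ShiLtJ is the nonobese diabetic inbred strain and PWK/PhJ is a wild-derived inbred strain. The members were 10 genes, chosen by symbol: the classical heavy chains H2-K1 and H2-D1, the Q-region genes H2-Q1, H2-Q2, H2-Q4, H2-Q6, H2-Q7 and H2-Q10, the T-region gene H2-T23, and the light chain B2m. Each had a row in both deposited tables, which gave expected counts per allele for 38924 genes. For every gene the counts of both alleles were added for total expression, and the PWK share was the PWK count as a percentage of that sum. All 10 members passed the low-count filter, which kept 11979 genes, and 9 of the 10 had the mean of at least 20 counts required of the 9362 autosomal genes tested for allele ratio. H2-Q1 did not reach that minimum.

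The 8 groups held 6 mice each. PWKxNOD mice and NODxPWK mice were the 2 directions of the cross. Within each direction, mice were fed a high vitamin D diet (0.050 g cholecalciferol per kg) or a normal one (0.009 g per kg), and within each diet they were killed older or younger. The protocol puts these ages at 24 and 15 weeks, whereas the age labels read 24 or 25 in older mice and 8 in younger mice with no unit, so the classes are called older and younger here. The label 25 was carried by 7 older mice on the normal diet, 2 PWKxNOD and 5 NODxPWK, so leaving them out takes mice from that diet and age alone and leaves its NODxPWK group with 1 mouse. Replicate numbers 1 to 6 mark sets of sequencing lanes, each with 1 mouse of every group. The strain named first supplied the X chromosome: the other strain received 4.29% to 6.60% of the X-linked counts of a mouse.

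Class I molecules are built from a polymorphic heavy chain and the invariant light chain beta-2-microglobulin, and they show peptides from inside the cell to CD8 T cells. H2-K1 and H2-D1 encode the heavy chains that do this on most nucleated cells. The Q and T genes are nonclassical: H2-Q10 encodes a secreted molecule made mainly by the liver, H2-Q6 and H2-Q7 belong to the Qa-2 group, and H2-T23 encodes Qa-1, a ligand of NK cell receptors. Interferons raise class I transcription in many cells. Since the samples were bulk liver, fewer cells of a type and less RNA per cell cannot be told apart in any of the values below.

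The libraries held between 2.03 and 7.48 M counts, with a median of 5.27 M, and the 6 mice that shared 1 barcode were the shallowest at 2.03 to 3.09 M. Hepatocyte markers summed to between 55832 and 118700 CPM (counts scaled to library size) per mouse, whereas T and NK cell markers did not exceed 10.1 CPM and neutrophil markers did not exceed 1.97 CPM. Exocrine pancreas transcripts exceeded 10 CPM in 10 mice and reached 1487 CPM in 1 younger mouse. Mitochondrial transcripts took 3.69% to 7.09% of the counts of a mouse. Every total comparison was repeated without the shallow mice, without the pancreas-positive mice, and with the mitochondrial share as a covariate.

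B2m and H2-Q10 led the family. Per kilobase of exon, total expression averaged 839 ± 103 CPM for B2m and 186 ± 30.04 CPM for H2-Q10 (SD, n = 48 mice). H2-D1 averaged 71.3 ± 9.77 and H2-K1 66.6 ± 9.62 CPM per kilobase, and H2-T23 averaged 27.2 ± 3.34 CPM per kilobase. H2-D1 and H2-K1 were not separated beyond their spread, with H2-D1 the higher in 40 of 48 mice. H2-Q4 averaged 15.7 ± 3.12, H2-Q2 7.93 ± 1.30 and H2-Q6 6.73 ± 1.61 CPM per kilobase, and the last pair again overlapped, H2-Q2 being higher in 39 mice. H2-Q7 averaged 2.27 ± 0.695 and H2-Q1 0.489 ± 0.307 CPM per kilobase. H2-Q1 had a median of 6.21 counts per mouse, so its values carry large counting error. The other neighbours in this order differed by more than the sum of their SDs.

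**Figure D1:**
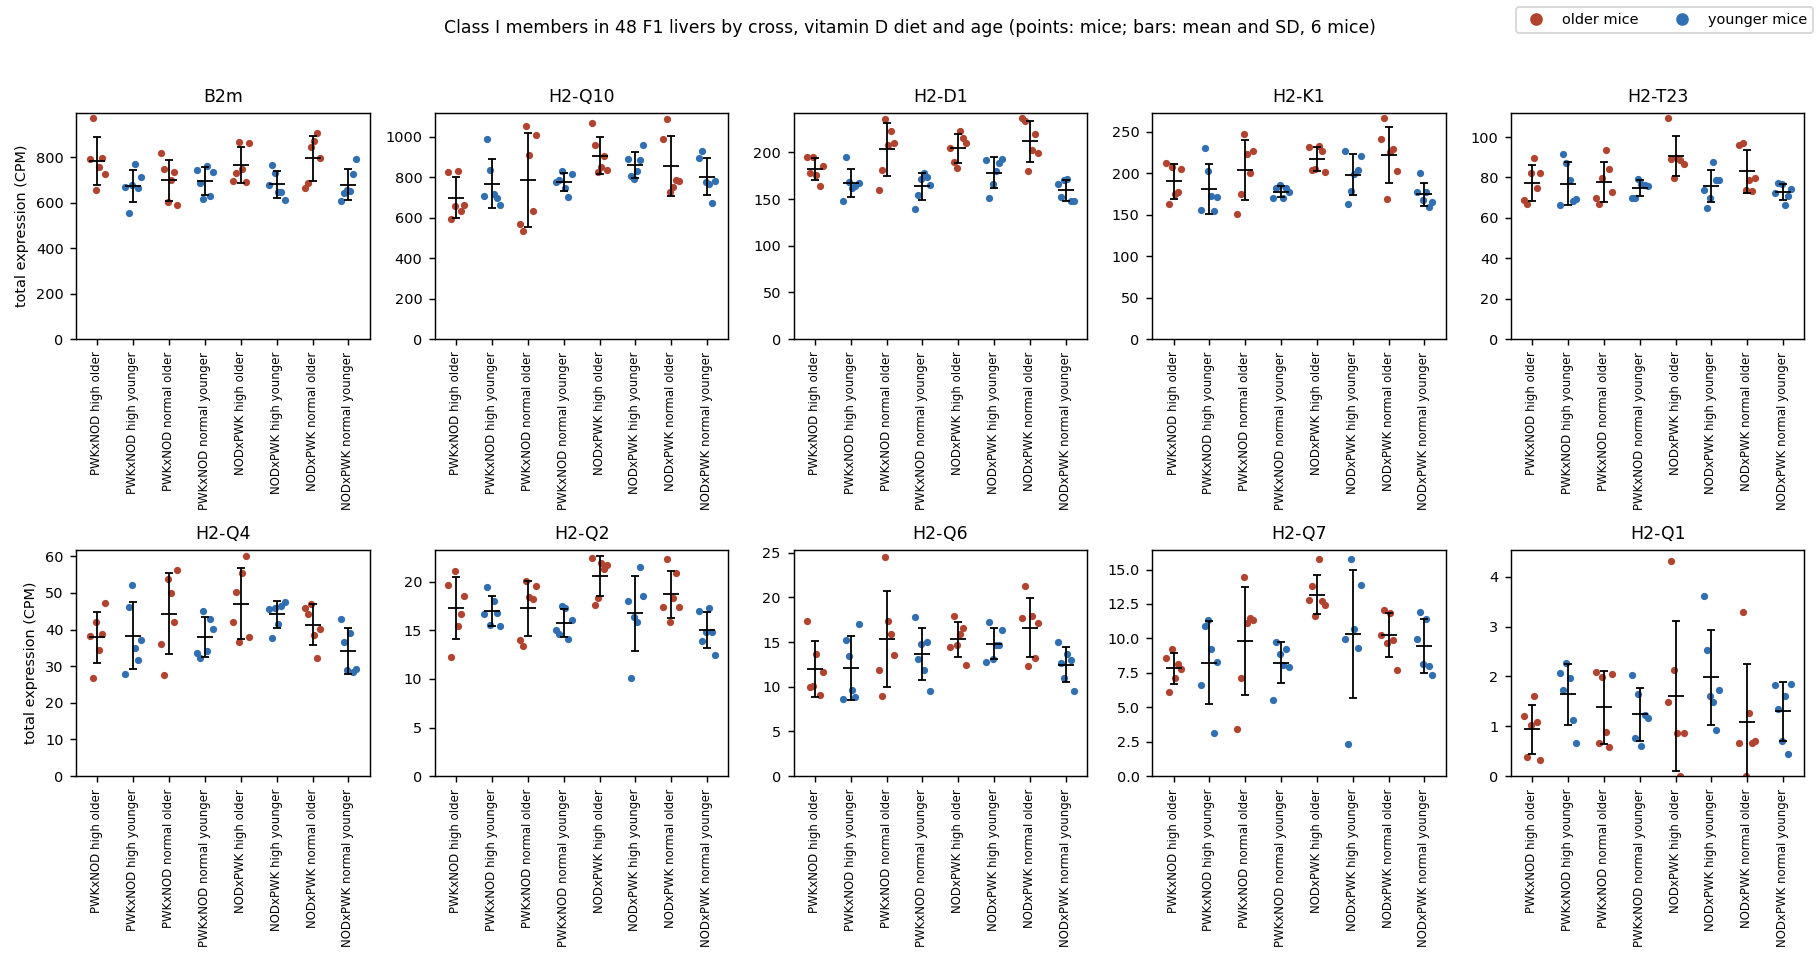
Total expression in CPM (y axis, starting at 0) of the 10 members in each of the 8 groups, with 1 point per mouse and the mean and SD of 6 mice in black. Older and younger groups of each cross and diet stand side by side, and their points overlap for every member and pair except H2-D1 in NODxPWK mice on the normal diet.

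The H2 members lie together on chromosome 17 of GRCm38, from H2-K1 (chr17:33996017-34000347, minus strand) through H2-D1 (chr17:35262730-35267499, plus strand) and the Q genes to H2-T23 (chr17:36029773-36032855, minus strand). B2m lies apart, at chr2:122147686-122153083 on the plus strand. Because the H2 genes are copies of each other, reads can fit several of them. Of all 68-base windows, the length of 1 read, in the annotated coding transcripts, 25.3% of those of H2-Q7, 25.0% of H2-Q4 and 24.5% of H2-Q6 also occurred in another gene. The share was 17.97% for H2-Q1, 16.4% for H2-T23, 9.60% for H2-Q2, 7.38% for H2-D1, 5.10% for H2-Q10 and 1.80% for H2-K1, and 0 of 793 windows of B2m were shared. Coding sequences of H2-Q6 and H2-Q7 were 95.4% identical over their aligned bases, and those of H2-K1 and H2-D1 91.5%. Both strands were searched, and 14.1% of the windows of H2-Q4 matched the antisense gene Gm11131, against 3.53% for H2-Q6. Most of the H2-Q4 figure is thus not sharing between class I copies. The values of H2-Q4, H2-Q6 and H2-Q7 are uncertain, since counts may have moved between genes that share windows. Strand was not kept in the libraries, so reads from the antisense gene Gm11131 cannot be told apart from those of H2-Q4 where they overlap.

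Promoters of 9 members were found among the RefSeq entries for GRCm38.p6, and H2-Q1 had no entry. The promoters of H2-K1, H2-D1, H2-Q10 and B2m are shown because these genes carry the comparisons that follow. Each run is the 200 bases before the RefSeq start, 5′ to 3′ on the gene's strand, and capitals mark matches to a kappa B motif (GGGATTCC), the interferon-stimulated response element in its general form or in the form seen in these genes (GAAGTGAAA, reverse TTTCACTTC), and CCAAT (reverse ATTGG). H2-K1 had 2 entries of which 1 is shown. Both the H2-D1 start and the H2-K1 start used here lie inside their GENCODE genes. The runs are chr17:34000334-34000533 (minus), chr17:35262894-35263093 (plus), chr17:35469889-35470088 (plus) and chr2:122147487-122147686 (plus).
H2-K1: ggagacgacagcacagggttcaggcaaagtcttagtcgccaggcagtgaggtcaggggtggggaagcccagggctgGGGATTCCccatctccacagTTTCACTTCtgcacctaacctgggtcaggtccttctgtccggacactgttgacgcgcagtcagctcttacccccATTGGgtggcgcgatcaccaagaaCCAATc
H2-D1: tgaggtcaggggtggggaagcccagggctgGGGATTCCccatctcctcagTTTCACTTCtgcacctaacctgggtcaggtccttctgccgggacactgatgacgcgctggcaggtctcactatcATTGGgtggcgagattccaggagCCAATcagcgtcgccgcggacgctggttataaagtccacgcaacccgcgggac
H2-Q10: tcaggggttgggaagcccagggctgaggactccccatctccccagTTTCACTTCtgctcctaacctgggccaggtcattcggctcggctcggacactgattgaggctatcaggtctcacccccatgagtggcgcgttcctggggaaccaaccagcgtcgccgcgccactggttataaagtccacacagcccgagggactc
B2m: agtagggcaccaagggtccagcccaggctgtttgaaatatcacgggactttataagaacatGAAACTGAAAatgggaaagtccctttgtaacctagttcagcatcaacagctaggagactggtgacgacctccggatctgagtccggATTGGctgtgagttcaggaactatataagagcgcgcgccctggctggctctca
The 8-letter kappa B motif matched in H2-K1, H2-D1, H2-Q6 and H2-Q7, 4 of the 9 members with an entry, and in 1.06% of 32851 promoters. The H2 promoters are copies, with H2-K1 and H2-D1 identical over 27 bases around this match, so members are not independent counts. The GAAGTGAAA form matched in 6 of 9 members and in 0.510% of promoters, and the general form in H2-T23 and B2m and in 3.44% of promoters. These letters were searched on both strands of each entry, from 250 bases before to 50 bases after the start, and the GAAGTGAAA form was chosen after the sequences were seen. CCAAT matched in 8 of 9 members, all but H2-Q10, against 37.4% of promoters. Around the kappa B position the closest copies compare as follows, over 27 bases each at chr17:35262913-35262939, chr17:35424667-35424693, chr17:35379433-35379459 and chr17:35469903-35469929, all on the plus strand.
H2-D1 window: gcccagggctgGGGATTCCccatctcc
H2-Q6 window: gcccatggctgGGGATTCCccatctcc
H2-Q4 window: gatcaggggtggggatttcccatctcc
H2-Q10 window: gcccagggctgaggactccccatctcc
H2-Q4 and H2-Q10 had no match to the 8 letters in this window, and a missing match says nothing about factor binding.

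More members passed with age than with diet or cross. In older against younger mice, 4 of the 10 members rose and 0 fell, where 12% of all tested genes passed in either direction and 6.42% rose (edgeR's quasi-likelihood test, Benjamini-Hochberg adjusted p below 0.05). The median log2 difference of the members was 0.15, against -0.0035 for all genes. Since the 10 genes were listed with earlier results of these data known, their count is a description.

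H2-D1 had the smallest adjusted p with age among the members. It ranged from 160 to 237 CPM with a median of 201 in older mice, against 139 to 195 CPM with a median of 167 in younger mice. In NODxPWK mice on the normal diet the age groups did not overlap, with 180 CPM in the lowest older mouse and 172 CPM in the highest younger mouse. In the other 3 combinations of cross and diet they overlapped, and means in older mice were 1.09 to 1.24 times those in younger mice. Of the older NODxPWK mice on the normal diet 5 carried the label 25, and overlap was not counted over all genes. The fitted log2 difference was 0.26 ± 0.04 (SE; adjusted p = 6.32e-06, edgeR's quasi-likelihood test), and H2-D1 passed under each of 15 alternative analyses.

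H2-K1 ranged from 150 to 267 CPM (median 206.5) in older mice, against 154 to 230 CPM (median 177) in younger mice. Its median was 191 CPM in older and 172 CPM in younger PWKxNOD mice on the high diet, and 212 and 179 CPM in older and younger PWKxNOD mice on the normal diet. In NODxPWK mice the medians on the high diet were 216 CPM in older mice against 201 CPM in younger mice, and on the normal diet 227 CPM in older mice against 172 CPM in younger mice. Medians were thus higher in older mice in each of the 4 pairs, while the ranges overlapped in each. The log2 difference was 0.19 ± 0.05 (SE; adjusted p = 0.00877, edgeR's quasi-likelihood test). It did not pass without lane set 4 (adjusted p = 0.0551) or 5 (0.0506), without the pancreas-positive mice (0.17, adjusted p = 0.0581), or without the mice labelled 25, where it was 0.12 with adjusted p = 0.24.

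B2m, the light chain shared by the heavy chains, rose too. It ranged from 588 to 973 CPM (median 749) in older mice, against 556 to 791 CPM (median 672) in younger mice, a log2 difference of 0.16 ± 0.05 (SE; adjusted p = 0.0188, edgeR's quasi-likelihood test). The groups overlapped widely, and the difference did not pass without lane set 2 (adjusted p = 0.05002) or 5 (0.0923) or without the mice labelled 25 (0.101). H2-Q2, a Q gene counted here almost wholly from its PWK allele, ranged from 12.2 to 22.5 CPM (median 18.4) in older mice and from 10.1 to 21.5 CPM (median 16.2) in younger mice. Its log2 difference was 0.19 ± 0.06 (SE; adjusted p = 0.0268, edgeR's quasi-likelihood test) and passed under 7 of 15 alternatives, with adjusted p reaching 0.257.

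The remaining members did not pass. H2-T23 had a log2 difference of 0.13 ± 0.05 with age (adjusted p = 0.0578) and passed under DESeq2 and without lane set 2. H2-Q4 (0.14 ± 0.07), H2-Q6 (0.17 ± 0.09) and H2-Q7 (0.15 ± 0.11) had differences in the same direction that did not pass, and H2-Q4 passed without the pancreas-positive mice (0.24, adjusted p = 0.0359). H2-Q10 stood nearest to 0 at 0.01 ± 0.06: it ranged from 533 to 1089 CPM (median 825) in older mice and from 664 to 988 CPM (median 788) in younger mice. H2-Q1 had -0.35 ± 0.26.

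Summed over the 8 H2 members without H2-Q10, expression was 578 ± 68.9 CPM in older mice and 504 ± 49.6 CPM in younger mice (SD, n = 24 each). With H2-Q10 included the sums were 1389 ± 225 CPM in older mice and 1306 ± 130 CPM in younger mice. H2-Q10 thus made up the larger part of the summed counts.

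**Figure D2:**
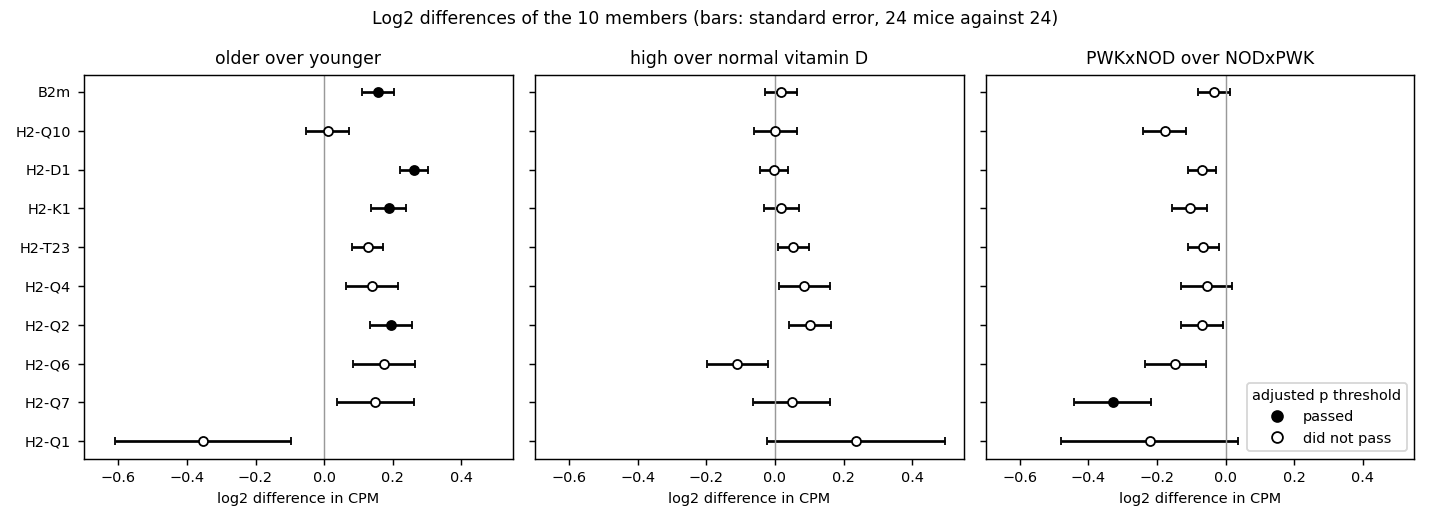
Log2 differences in CPM (x axis) of the 10 members (rows, ordered by level) for older over younger, high over normal vitamin D and PWKxNOD over NODxPWK mice, with standard errors from 24 mice against 24. Filled points passed the adjusted p threshold: H2-D1, H2-K1, H2-Q2 and B2m with age, and H2-Q7 with cross.

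Other genes of the class I pathway were described from 3 lists. Of 13 genes for peptide processing and loading, 0 passed with age in either direction, and their median log2 difference was 0.04. Of 9 tested class I and class I-like genes outside the members, 3 rose with age, where 6.42% of all genes rose, and 0 fell: H2-T22 by 0.35 ± 0.06 (adjusted p = 1.43e-05), H2-T10 by 0.20 ± 0.06 (adjusted p = 0.0144) and Hfe, an iron regulator, by 0.15 ± 0.04 (adjusted p = 0.00812; edgeR's quasi-likelihood test for each). H2-T22 passed under all 15 alternatives, and H2-T10 and Hfe under 12 each. Of 10 regulators of class I transcription, 0 rose and 3 fell, where 5.59% of all genes fell. Stat2, part of the complex that carries the type I interferon signal, fell by 0.21 ± 0.04 on the log2 scale (adjusted p = 0.000342), and Irf2 fell by 0.20 ± 0.05 (adjusted p = 0.00824). Stat2 passed under all 15 alternatives and Irf2 under 13, not without lane set 5 or without the pancreas-positive mice. Irf1, an activator of class I promoters, fell by 0.28 ± 0.09 (adjusted p = 0.0277) but passed under 8 of 15 alternatives.

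Marker lists of other liver cells were read beside these changes, where 6.42% of all tested genes rose with age and 5.59% fell. Of 7 tested Kupffer cell and macrophage markers, 0 passed with age, and their sum was 153 ± 24.1 CPM in older mice and 146 ± 18.97 CPM in younger mice. T and NK cell markers summed to 1.01 to 10.1 CPM in older mice and 0.907 to 7.33 CPM in younger mice, and 1 of 8 was tested and did not pass. B and plasma cell markers summed to 12.04 to 128 CPM in older mice and 18.1 to 130.4 CPM in younger mice, with 1 of 2 tested markers higher. Bile duct markers were higher in older mice for both of 2 tested, at 28.2 to 122 CPM summed in older mice and 23.4 to 40.04 CPM in younger mice. Of 5 sinusoidal endothelial markers 1 rose and 2 fell, and their sums ranged over 188 to 289 CPM in older mice and 206 to 295 CPM in younger mice. Of 6 hepatocyte markers 2 rose and 2 fell, with sums of 55832 to 116070 CPM in older mice and 70676 to 118700 CPM in younger mice. Exocrine pancreas and erythroid markers had 0 of 7 and 0 of 4 past the threshold, and neutrophil markers were too low to test, with 1 of 4 at 0. The part of these cells in the class I differences was not tested.

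Between the directions of the cross, 1 of 10 members passed, where 10.7% of all genes passed and 5.33% were lower in PWKxNOD mice. H2-Q7 ranged from 3.15 to 14.5 CPM (median 8.42) in PWKxNOD mice, against 2.36 to 15.7 CPM (median 11.03) in NODxPWK mice. The ranges overlapped over nearly their whole length. The log2 difference was -0.33 ± 0.11 (SE; adjusted p = 0.0493, edgeR's quasi-likelihood test), and it passed under 7 of 14 alternatives. Summing H2-Q6 and H2-Q7, 95.4% identical over aligned coding bases, gave -0.22 ± 0.08 with adjusted p = 0.0676 by the same test. That sum leaves out H2-Q5, which shared 12.5% of the windows of H2-Q7, against 12.7% for H2-Q6.

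H2-Q10 ranged from 533 to 1052 CPM (median 731) in PWKxNOD mice, against 673 to 1089 CPM (median 834) in NODxPWK mice. Its log2 difference of -0.18 ± 0.06 narrowly missed the threshold (adjusted p = 0.0594) and passed under 3 of 15 alternatives, which were DESeq2 (adjusted p = 0.0488), leaving out lane set 3 (0.0219) and the mitochondrial covariate (0.00221). H2-K1 had -0.10 ± 0.05 (adjusted p = 0.208) and passed under 2 of 15 alternatives. Fitted differences of the 10 members had a median of -0.09, against -0.0016 over all genes. Without the mice labelled 25, the values of H2-K1, H2-D1, H2-Q2, H2-Q6 and H2-T23 turned positive, with 1 mouse left in the older NODxPWK group on the normal diet. B2m turned positive without lane set 3 and H2-Q4 without lane set 1. No direction is given for members that did not pass.

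The immunoproteasome genes differed between the directions of the cross, with higher values in PWKxNOD mice. Psmb9 rose by 0.41 ± 0.12 (adjusted p = 0.0125), Psmb8 by 0.27 ± 0.08 (adjusted p = 0.0169) and Psmb10 by 0.23 ± 0.07 (adjusted p = 0.031), 3 of 13 processing genes with 0 lower, where 5.36% of all genes were higher (edgeR's quasi-likelihood test). They encode the catalytic subunits that replace those of the standard proteasome and shape class I peptides. Of 15 alternatives Psmb9 passed under 11, Psmb8 under 12 and Psmb10 under 9, and none of these 3 passed without lane set 5 or without the mice labelled 25. Among the regulators, Rfxank, a subunit of the RFX complex that binds MHC promoters, fell by 0.51 ± 0.09 (adjusted p = 5.27e-05) and passed under all 15 alternatives. Cd1d1, which presents lipids to NKT cells, fell by 0.14 ± 0.05 (adjusted p = 0.0403) and passed under 7 of 15. Exocrine pancreas markers were higher in PWKxNOD mice for 5 of 7, with a range of 0 to 1487 CPM in PWKxNOD mice and 0 to 192 CPM in NODxPWK mice. Of the tested markers of other cells, Alb, Vsig4, Pecam1, Lyve1 and Sox9 were lower in PWKxNOD mice and Spp1 was higher. Hepatocyte markers summed to 81354 ± 9545 CPM in PWKxNOD mice and 95579 ± 11188 CPM in NODxPWK mice (SD, n = 24 each). The part of these cells in the cross differences was not tested. Without the pancreas-positive mice Rfxank, Psmb9, Psmb8 and Psmb10 passed and Cd1d1 did not.

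Diet moved 0 of the 10 members, where 0.342% of all genes passed. H2-D1 ranged from 148 to 223 CPM (median 184) on the high diet and from 139 to 237 CPM (median 176) on the normal diet, a log2 difference of -0.00 ± 0.04. H2-K1 had 0.02 ± 0.05, B2m 0.02 ± 0.05 and H2-Q10 0.00 ± 0.06, and the largest difference among members with an SE under 0.1 was that of H2-Q6, -0.11 ± 0.09. By unadjusted p 0 of 10 members were below 0.05, and DESeq2 called 0. The standard errors of these members set the size of a change that could have been seen, and smaller changes were not detectable with 24 mice on each diet.

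Split by age, 0 members passed in older mice, where 3.71% of genes passed, and 0 in younger mice, where 0.0% of genes did. In younger mice 573 genes had an unadjusted p below 0.05 by edgeR, and DESeq2 called 10. H2-D1 had a diet difference of -0.11 ± 0.06 in older mice and 0.10 ± 0.06 in younger mice. The interaction of diet and age on H2-D1 was -0.21 ± 0.08 with an unadjusted p of 0.0149 and an adjusted p of 0.276, so it did not pass, and 0 of 10 members passed for this interaction, where 0.618% of genes passed. Rfxank was lower on the high diet in older mice (-0.46 ± 0.13, adjusted p = 0.0289) and passed under 9 of 15 alternatives.

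No member passed for the interaction of age and cross, where 0.0501% of genes passed, or of diet and cross, where 0.125% passed. At an unadjusted p below 0.05 there was 1 member for age and cross, H2-T23 (-0.19 ± 0.09), and 2 for diet and cross, H2-Q4 (-0.39 ± 0.15) and H2-Q7 (-0.47 ± 0.22). DESeq2 called 0 members for the 3 interactions. H2-T23 illustrates the first: its median was 78.4 CPM in older and 74.0 CPM in younger PWKxNOD mice on the high diet, and 89.0 CPM in older and 76.3 CPM in younger NODxPWK mice on that diet.

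For H2-K1, H2-Q2, H2-Q4, H2-Q6 and H2-T23 the log2 difference between alleles was larger than any fitted group or interaction difference in the total expression of a member. All 9 tested members passed for PWK against NOD allele, where 43.6% of autosomal genes passed. The PWK allele was higher in 4 members, where 20.9% of genes were higher, and lower in 5, where 22.8% were lower. Expected counts divide reads that fit both alleles, or several genes, among them. The haplotype sequences of NOD and PWK were not used here, so lower expression of an allele, a missing gene and poorer matching of its reads cannot be told apart. NOD mice carry the Kd and Db forms of the classical heavy chains.

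H2-K1 was counted mainly from the NOD allele. Its PWK share was 13.8% ± 2.92 (SD, n = 48) and ranged from 6.65% to 18.7%, so NOD was the larger in every mouse. The log2 ratio of PWK over NOD was -2.65 ± 0.05 (SE; adjusted p = 3.76e-36, edgeR's quasi-likelihood test with a term per mouse). H2-D1 was closer to balance, with a PWK share of 41.4% ± 3.23 and a range of 34.01% to 49.2%, again below 50% in every mouse (-0.51 ± 0.03, adjusted p = 7.17e-20).

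The Q genes diverged from each other. H2-Q2 was counted almost wholly from PWK: 4354 of 4370 counts over all mice, a pooled share of 99.6%, with under 0.5 NOD counts in 39 of 48 mice and at most 3.04 in any. H2-Q1 was the reverse at very low depth, with 26.4 PWK counts of 355.5 over all mice, and it was not tested. H2-Q6 had a PWK share of 86.2% ± 8.16 (62.03% to 100%; log2 ratio 2.72 ± 0.15, adjusted p = 1.34e-19) and H2-Q4 one of 23.4% ± 7.23 (9.15% to 41.2%; -1.77 ± 0.09, adjusted p = 4.90e-21). Among the 9 tested members H2-Q7 varied most between mice, with 42.3% ± 17.6 and a range of 0 to 75.4%, and its ratio of -0.46 ± 0.17 (adjusted p = 0.0253) passed under 7 of 12 alternatives.

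For the pair H2-Q6 and H2-Q7, which share the most sequence, the PWK share of the summed counts was 68.9% ± 9.68. The summed counts of H2-Q1 and H2-Q2 gave 92.8% ± 4.86, and those of H2-K1 and H2-D1 gave 27.2% ± 1.63. Summing thus narrowed the spread of the classical pair below that of each gene.

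H2-Q10 and H2-T23 leaned towards PWK and B2m towards NOD, each by less than H2-K1, H2-Q4 and H2-Q6. H2-Q10 had a PWK share of 55.3% ± 1.33, above 50% in every mouse (51.7% to 57.9%; log2 ratio 0.31 ± 0.01, adjusted p = 4.77e-27). H2-T23 had 63.8% ± 4.59 (56.4% to 75.4%; 0.83 ± 0.04, adjusted p = 1.86e-21). B2m, on another chromosome and with no shared windows, had 46.1% ± 1.89 (42.4% to 50.3%; -0.23 ± 0.02, adjusted p = 2.00e-16). Summed over the 9 H2 members the PWK share was 47.6% ± 1.05, while the mean shares of the 8 tested among them lay between 13.8% and 99.7%.

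Neighbouring genes mostly had PWK shares near 50%. How many of their reads told the alleles apart was not counted, so such a share need not mean equal expression. Of 59 other tested genes between H2-K1 and H2-T23, 53 had a pooled PWK share of 40% to 60%, or 89.8%, against 82.8% of the 9362 tested autosomal genes. Of the 8 tested H2 members 3 lay in that band, H2-D1, H2-Q7 and H2-Q10. Among the neighbours, chosen after their values were seen, C4a, a complement gene, had 3.20% and Gm20483 2.82%, both far towards NOD, and H2-T24 had 61.4%. The class II genes H2-Ab1 and H2-Aa had 49.6% and 56.7%.

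**Figure D3:**
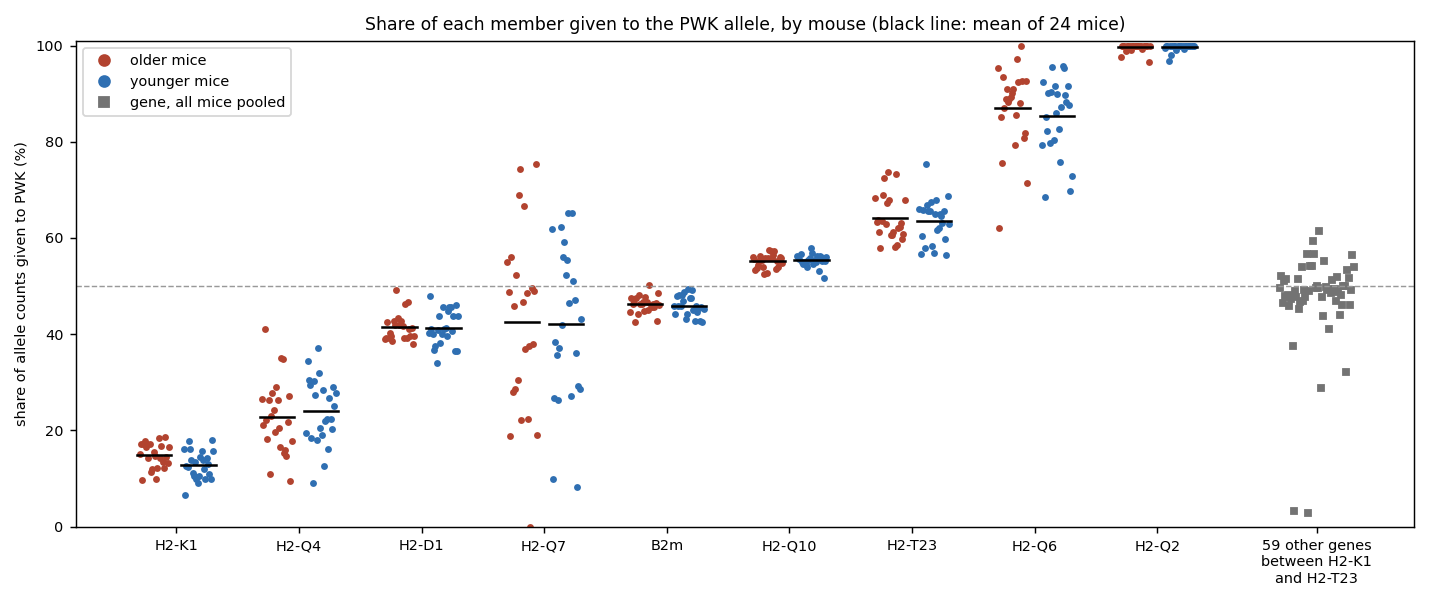
Share of allele counts given to PWK (y axis, percent) for the 9 tested members, with 1 point per mouse, older left of younger and black lines for means of 24 mice; grey squares are 59 other tested genes between H2-K1 and H2-T23, pooled over mice. H2-K1 and H2-Q4 lie low, H2-Q6 and H2-Q2 high, H2-Q7 is widely spread, and most neighbours lie near the dashed line at 50%.

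The allele ratio was not called different between groups in any member. For cross direction 0 of 9 members passed, where 0.267% of genes did, with 0 at an unadjusted p below 0.05. H2-K1 had a PWK share of 13.9% ± 2.67 in PWKxNOD mice and 13.8% ± 3.21 in NODxPWK mice, and H2-Q10 had 55.5% ± 1.38 in PWKxNOD mice and 55.1% ± 1.28 in NODxPWK mice (SD, n = 24 each). For age 0 of 9 passed, where 0.705% of genes did. The nearest was H2-K1, with 14.8% ± 2.63 in older mice and 12.8% ± 2.88 in younger mice, a log2 ratio difference of 0.23 ± 0.10 (unadjusted p = 0.0255, adjusted p = 0.678). On the PWK allele H2-K1 averaged 31.1 ± 7.62 CPM in older mice and 23.7 ± 7.33 CPM in younger mice, and on the NOD allele 177 ± 23.9 CPM in older mice and 159 ± 15.95 CPM in younger mice. Both alleles were thus higher in older mice, by their means. H2-D1 had 82.8 ± 8.46 CPM from PWK in older mice and 68.9 ± 7.12 CPM in younger mice, and 118 ± 15.97 CPM from NOD in older mice and 98.3 ± 12.7 CPM in younger mice. For diet 0 of 9 passed, where 0.0214% of genes did. The alternative limma test on log2 ratios called 0 of 9 in each of the 3 comparisons.

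Within groups, B2m moved from mouse to mouse against most of the H2 members. Deviations of log2 CPM (pseudocount 0.5) from the group means were correlated over the 48 mice, with labels permuted 100000 times within groups. The correlation of B2m was negative with all 9 H2 members, and the adjusted p was below 0.05 for 8 of the 9 relations tested. Among 11978 genes ranked from the highest Pearson correlation with B2m, the 9 H2 members stood between 7300th (H2-Q1) and 11445th (H2-K1). Other genes were thus more negative with B2m than any H2 member. With H2-K1 Pearson's r was -0.68 (permutation p = 1e-05, the smallest possible; adjusted 4.5e-05) and Spearman's rho -0.65 (permutation p = 3e-05, adjusted 9e-05), and the sign was negative within each of the 8 groups. Without the 2 mice farthest in B2m, r was -0.63. With H2-Q10 r was -0.67 and rho -0.64, and with H2-D1 -0.60 and -0.60. With H2-Q1, the least counted member, r was -0.14 (permutation p = 0.382).

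The mitochondrial share of the counts was related to these levels too. It correlated positively with B2m, with r = 0.87 and rho = 0.86 (permutation p = 1e-05 for both, the smallest possible; adjusted 2.5e-05), positive within each of 8 groups, and 0.85 without the 2 mice farthest in mitochondrial share. With H2-K1 r was -0.76 and rho -0.77, with H2-Q4 -0.73 and -0.74, with H2-D1 -0.70 and -0.72, and with H2-Q10 -0.70 and -0.64, each negative in 8 of 8 groups and past the threshold after adjustment over 10 relations. The CPM values and the mitochondrial share were all scaled to the size of the same libraries. The mitochondrial share was 5.38% ± 0.768 in older mice and 5.62% ± 0.671 in younger mice, and 5.48% ± 0.738 in PWKxNOD mice and 5.53% ± 0.724 in NODxPWK mice (SD, n = 24 each). With it as a covariate the same 4 members passed with age as without it: H2-D1 at 0.23 ± 0.03, B2m at 0.20 ± 0.03, H2-K1 at 0.14 ± 0.04 and H2-Q2 at 0.15 ± 0.05. With cross, H2-Q7, H2-Q10 and H2-K1 then passed, H2-K1 at -0.12 ± 0.03 (adjusted p = 0.0159).

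The PWK shares of H2-K1 and H2-D1 moved against each other. Over the 48 mice r was -0.62 (permutation p = 3e-05, adjusted 0.00108 over 36 pairs of members) and rho -0.63 (permutation p = 1e-05, the smallest possible; adjusted 0.00036), negative in each of 8 groups, and r was -0.56 without the 2 mice farthest in H2-K1. None of the other 35 pairs had an adjusted p below 0.05, the next smallest being 0.413 for r. The mitochondrial share correlated with both, with r = -0.58 for the H2-K1 share (permutation p = 6e-05, adjusted 0.00027 over 9 relations) and r = 0.61 for the H2-D1 share (permutation p = 2e-05, adjusted 0.00018). The rho values were -0.58 (permutation p = 7e-05) and 0.61 (permutation p = 5e-05), and without the 2 farthest mice r was -0.59 and 0.64. For the H2-T23 share r was -0.42 (permutation p = 0.00512, adjusted 0.0154) and rho -0.36 (permutation p = 0.0186, adjusted 0.0558). The shares of the other members did not pass after adjustment, and those of H2-Q10 and B2m had r = -0.01 and -0.04. The SD of the H2-K1 share within groups was 2.85 percentage points, differences between animals included, where binomial sampling of its counts gives 1.19 points.

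**Figure D4:**
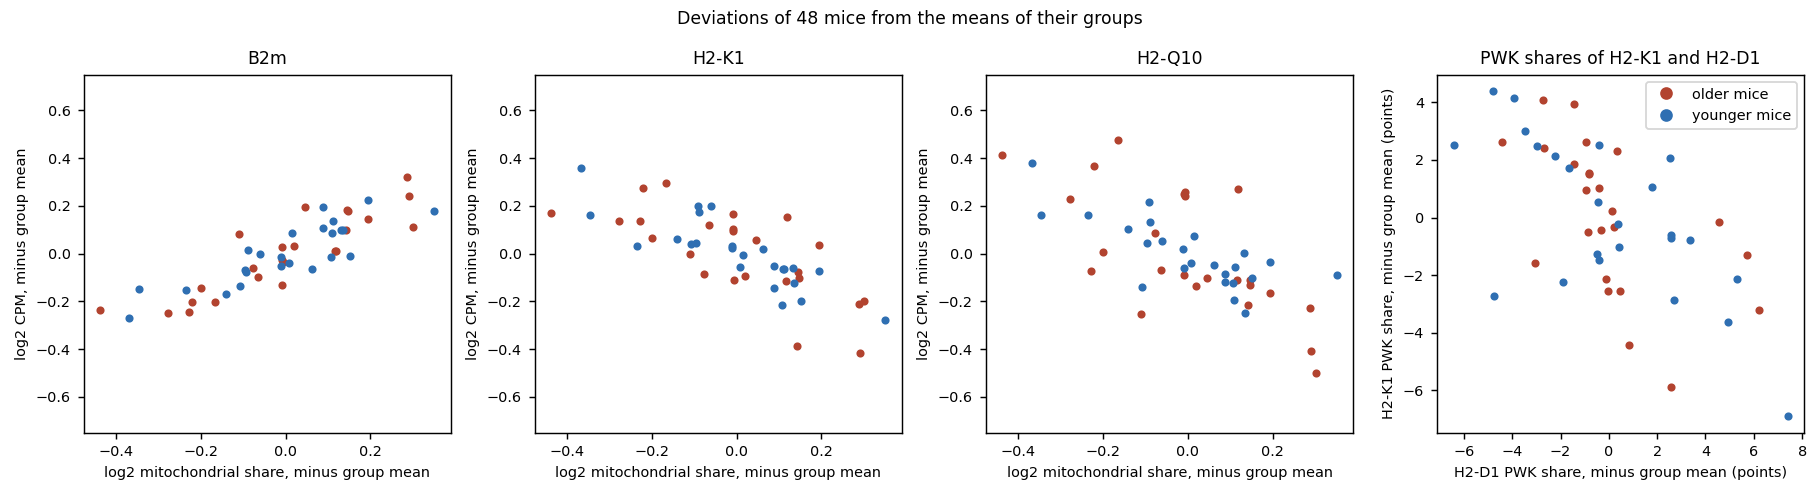
Deviations of 48 mice from their group means: log2 CPM of B2m, H2-K1 and H2-Q10 (y axes) against the log2 mitochondrial share (x axes), and the PWK share of H2-K1 against that of H2-D1 in percentage points (right). B2m rises with the mitochondrial share while H2-K1 and H2-Q10 fall, and the 2 PWK shares run in opposite directions.

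The genes most like 3 members over the 48 mice were taken by the highest Pearson correlation of the same deviations among 11978 genes, as a description with no test. For H2-K1 they were Fgfr4, Ncln, Slc27a4, Tmprss6 and Qprt, with r of 0.83 to 0.84 and rho of 0.82 to 0.83. Among members, H2-D1 ranked 22nd and H2-Q10 65th for H2-K1, with r of 0.79 and 0.75. For H2-Q10 they were Tm7sf2, Slc25a1, Tecr, Mvk and Srebf2, with r of 0.82 to 0.89 and rho of 0.77 to 0.89. For B2m they were mt-Nd3, mt-Nd4, Tm9sf3, mt-Nd6 and mt-Co2, with r of 0.87 to 0.90 and rho of 0.86 to 0.91, and H2-K1 ranked 11445th of 11978. Genes compared this way share libraries, depth and scaling.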

How the data were processed

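Liver poly-A RNA was read as 68-base single ends without strand, per the labels' protocols, and Bowtie 1.1.2 and CASAVA 1.7.0 are named in the submitters' processing notes, with GRCm38 as the build. The authors deposited expected counts per gene for each parental allele, unscaled, with 1 column per mouse, whereas the labels list 96 entries for 48 mice, and no source read for this work states the joining of runs. The members and gene lists were chosen with earlier results of these data known.

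Counts of both alleles were summed, rounded and fitted for all 8 groups with edgeR 4.0.16 (R 4.3.3): filterByExpr, TMM scaling and robust quasi-likelihood tests, with Benjamini-Hochberg adjustment over 11979 genes and a threshold of 0.05. Allele ratios were fitted over 9362 genes with a term per mouse. CPM used the summed counts of the genes kept by the filter, multiplied by the TMM factor of each mouse. Library totals before the filter were 2.03 to 7.48 M counts. Alternatives used DESeq2 1.42.0, limma 3.58.1, other scaling, no filter, left-out mice and a mitochondrial covariate. The leave-outs for pancreas transcripts and the shallow barcode, the covariate and 1 motif were chosen after seeing the data. Mice are separate animals, and the scripts were tested on simulated data. From the pathway lists the genes given with values with age, diet or cross are those that passed, and the 5 genes most correlated with H2-K1, H2-Q10 and B2m are named. Neighbours in the allele comparison were chosen after their values were seen.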

Additional observations from a re-analysis of the deposited data

Results flagged for a closer look

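In 12 of 152 sets of 6 mice, 1 mouse stood apart from the other 5 by Dixon's criterion, which chance alone exceeds in about 1 set in 20. That rate does not hold for 5 of the 12, which were H2-Q2 shares where the other 5 mice all stood at 100%. Of the 12 flags, 3 fell on the same mouse, replicate 3 of the older NODxPWK group on the high diet. Its PWK share was 9.70% for H2-K1, against 15.1% to 17.9% in the other 5 mice, 42.5% for H2-D1, against 39.1% to 40.3%, and 41.2% for H2-Q4, against 18.2% to 26.5%. In older PWKxNOD mice on the normal diet, replicate 1 had an H2-D1 share of 46.8%, against 37.97% to 41.2% in the others. This replicate carried the shallow barcode, with 2.03 M counts.

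H2-Q2 gave 5 flags, since a few NOD counts stand out where the other mice are at 100%. Its PWK share was 99.1% in replicate 3 of older NODxPWK mice on the normal diet, 98.98% in replicate 4 of the younger NODxPWK mice on that diet, 99.3% in replicate 6 of the older and 99.3% in replicate 4 of the younger PWKxNOD mice on the high diet, and 96.6% in replicate 5 of the older PWKxNOD mice on the normal diet. H2-Q10 had a share of 51.7% in replicate 4 of younger PWKxNOD mice on the normal diet, against 55.2% to 56.3%. H2-T23 had 109.6 CPM in replicate 1 of older NODxPWK mice on the high diet, against 79.6 to 89.4 CPM. Its share was 73.4% in replicate 5 of older PWKxNOD mice on the high diet, against 58.1% to 61.2%. The mice flagged for the H2-Q10 and H2-T23 shares carried the shallow barcode, with 2.05 and 2.14 M counts. So did the mouse flagged for H2-Q2 in older NODxPWK mice on the normal diet, with 3.09 M counts.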

How the results depend on the processing

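H2-D1 kept its age difference under each of 15 alternatives (log2 0.22 to 0.29), H2-K1 passed in 11, B2m in 12 and H2-Q2 in 7, and 8 of 9 allele differences passed in every alternative that tested them, H2-Q7 being the exception at 7 of 12. Counts of all genes called moved more, and the cause was not tested. With age, 777 genes passed without the mice labelled 25, which leaves 1 group with 1 mouse, and 894 without pancreas-positive mice, against 1439; leaving out 1 lane set gave 1045 to 1401. With cross, 847 passed without the mice labelled 25, against 1281 (877 to 1182 without 1 lane set).
With diet, 124 passed by DESeq2, 24 with no filter, 0 without the mice labelled 25, 15 without the shallow barcode, 0 without pancreas-positive mice and 192 with the mitochondrial covariate, against 41 (6 to 40 without 1 lane set). In older mice 290 passed with no filter, 5 without the mice labelled 25 and 19 without pancreas-positive mice, against 445 (176 to 438). In younger mice 10 passed by DESeq2, 1 without the mice labelled 25 and 3 with the covariate, against 0.
For diet and age, DESeq2 called 167, no filter 23, and leaving out the mice labelled 25, the shallow barcode or the pancreas-positive mice 0, 38 and 1, against 74 (4 to 90). For age and cross, DESeq2 called 40, the replicate block 3, the leave-outs of label 25 and the shallow barcode 0 and 2, and the covariate 26, against 6 (0 to 8). For diet and cross, DESeq2 called 46, no filter 2, leaving out label 25 gave 4, pancreas-positive mice 0 and the covariate 0, against 15 (0 to 90).
For PWK against NOD, limma with the replicate block called 2043 and a minimum of 100 counts 2684, against 4086. The ratio by cross gave 16 to 23 without 1 lane set, against 25. The ratio by age gave 39 without pancreas-positive mice and 39 to 51 without 1 lane set, against 66. The ratio by diet gave 16 without the mice labelled 25, 0 without pancreas-positive mice and 0 to 2 without 1 lane set, against 2.
Replicate numbers mark lane sets and did not pair the mice: same-numbered mice had a mean correlation of -0.0051, 32 of 168 pairs exceeded 0.1, and 8 of 48 mice correlated best with their own number. With the replicate block the same 4 members passed with age and H2-Q7 with cross, and H2-Q7 lost its allele difference under limma. Depth limits H2-Q1 most, at a median of 6.21 counts per mouse.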

Other observations

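Within groups, the PWK share of B2m, which shares no window with another gene, had an SD of 1.89 percentage points between mice, where binomial sampling of its counts gives 0.864. The first value also holds differences between animals and the error of estimating expected counts, and the comparison was not tested. The complement genes near the class I genes, chosen after their values were seen, ranged widely in level and balance: C4b had 1564 CPM at a pooled PWK share of 48.9%, Cfb 829 CPM at 47.8%, C2 123 CPM at 37.5% and C4a 166 CPM at 3.20%.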
